A study of Mus musculus with 9 samples.

Results

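Immediate early genes were described in RNA sequencing libraries from sorted mouse retinal cells. The labels call them primary retinal ganglion cells, the output neurons of the eye, but rod markers far outweighed ganglion cell markers in every library. The members were 10 listed genes, found by symbol among the 24772 entries of the deposited gene table, and all 10 were in the table. They comprised the AP-1 transcription factor genes Fos, Fosb, Fosl2, Junb and Jund, the zinc finger factor gene Egr1, the nuclear receptor gene Nr4a1, the nuclear protein gene Ier2, the kinase phosphatase gene Dusp1 and the antiproliferative gene Btg2. All 10 passed the filter on low counts and were tested.

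The table held 9 libraries in 3 groups of 3. Ctrl came from intact retinas of wild-type mice. ONC came from wild-type retinas taken 3 days after the optic nerve was crushed, which cuts off the axons of ganglion cells. CKO came from retinas on day 3 after crush in mice with a conditional knockout of ZnT3, the vesicular zinc transporter, in amacrine cells, retinal interneurons that are mostly inhibitory. The sources used here do not give the driver of the knockout, the age of the mice or whether animals were pooled, and no intact knockout group was analysed here. The labels do not tie the libraries to individual mice. The p-values therefore cover only the spread between these libraries, and that spread may be technical.

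Immediate early genes are transcribed within minutes of a stimulus without new protein synthesis, because their factors, such as SRF and CREB, are already bound or only need phosphorylation. In neurons they follow calcium entry, growth factors and injury, and their mRNAs are short-lived. Fos proteins pair with Jun proteins to form AP-1, while Dusp1 and Btg2 belong to the feedback that ends a response. Handling and enzymatic dissociation of tissue also induce these genes, and how the retinas were dissociated before the sort is not given in the sources used here.

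Facts of the whole series bear on every value here. The libraries held 14166996 to 25571715 counts each. Rod photoreceptor markers took 8.55% to 10.5% of the counts over 15 genes, while 15 ganglion cell markers took 0.0115% to 0.0255%. The ganglion cell factors Pou4f2 and Pou4f3 were too low to test. Each level therefore belongs to the whole sort and cannot be assigned to ganglion cells. In bulk samples, fewer cells of a type and less RNA per cell cannot be told apart. The ONC libraries are named by their column numbers, 3, 5 and 6, because these do not match the labels. Columns 3 and 6 were nearly alike, with a variance 3.75 times that expected from counting, against 12.3 to 16.9 times within Ctrl and CKO. Column 5 differed from columns 3 and 6 by 64.9 and 59.6 times the counting variance, and from the CKO libraries by 16.0 to 19.0 times. Member results after crush are therefore given also without column 5 and from column 5 alone. The fit without column 5 takes ONC spread from the nearly alike columns 3 and 6, so its p-values may be too low. The fit of column 5 alone leaves ONC with 1 library, which is assumed to vary like the libraries of the other groups.

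The promoters of 4 members are shown because Fos, Junb and Btg2 were higher and Dusp1 lower after crush, and because all 4 hold a core of the cyclic AMP response element, the binding motif of CREB. Promoters of 8 of the 10 members matched RefSeq (GRCm38.p6), all but Egr1 and Ier2. Each run starts 250 bases before the RefSeq start and reads 5′ to 3′ on the strand of the gene, and the run of Dusp1 stops after 203 bases, where the first exon of a GENCODE transcript of Dusp1 begins. A longer GENCODE transcript of Dusp1 starts further upstream, so this window lies in an intron of it. Capitals mark TGACG, the full element TGACGTCA and the TATA motif TATAAA. They lie at chr12:85473640-85473889 (plus strand, Fos), chr8:84978749-84978998 (minus strand, Junb), chr1:134079156-134079405 (minus strand, Btg2) and chr17:26508520-26508722 (minus strand, Dusp1).
Fos: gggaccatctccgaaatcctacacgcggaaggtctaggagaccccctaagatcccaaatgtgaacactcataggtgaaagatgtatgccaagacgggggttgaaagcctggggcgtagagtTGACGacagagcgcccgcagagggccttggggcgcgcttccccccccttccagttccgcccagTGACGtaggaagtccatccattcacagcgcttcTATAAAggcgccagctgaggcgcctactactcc
Junb: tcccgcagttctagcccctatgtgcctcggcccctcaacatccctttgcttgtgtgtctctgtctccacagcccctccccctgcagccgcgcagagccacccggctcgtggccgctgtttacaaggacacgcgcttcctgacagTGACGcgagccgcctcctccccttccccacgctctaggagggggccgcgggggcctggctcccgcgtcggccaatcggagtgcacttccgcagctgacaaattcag
Btg2: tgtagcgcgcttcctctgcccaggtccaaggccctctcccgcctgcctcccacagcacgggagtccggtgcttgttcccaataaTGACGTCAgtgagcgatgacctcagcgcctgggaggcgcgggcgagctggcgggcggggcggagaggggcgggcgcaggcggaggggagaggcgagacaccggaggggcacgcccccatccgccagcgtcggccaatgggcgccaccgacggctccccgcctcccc
Dusp1: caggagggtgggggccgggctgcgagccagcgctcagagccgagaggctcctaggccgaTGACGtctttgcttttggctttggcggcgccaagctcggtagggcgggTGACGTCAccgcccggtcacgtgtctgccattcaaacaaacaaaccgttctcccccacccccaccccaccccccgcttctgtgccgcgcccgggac

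The full element TGACGTCA began 166 bases before the start of Btg2 and 143 bases before that of Dusp1, a gene that rose and a gene that fell. It was in 2 of the 8 member promoters and in 1.55% of 32851 RefSeq promoters of 250 bases. The core TGACG, searched on both strands and contained in the full element, was in 6 of 8 member promoters (Fos, Fosb, Junb, Nr4a1, Btg2 and Dusp1) and in 17.8% of all. In Fos it began 129 and 66 bases before the start, with TATAAA 33 bases before it, a motif found in 1 of 8 member promoters and 12.4% of all. The early growth response motif GCGNGGGCG, which can overlap the SP1 motif GGGCGG, was in 4 of 8 and in 4.70% of all, and GGGCGG itself was in 6 of 8 and in 32.7% of all. Within these 250 bases the CArG box of SRF and the AP-1 motif TGANTCA were in 0 of 8 member promoters, against 1.47% and 6.75% of all. The windows follow RefSeq starts, which can differ from GENCODE starts. The Fosl2 window begins inside a GENCODE exon of the gene, and the RefSeq start of Jund, chr8:70697739, lies upstream of its GENCODE start at 70698949. Sites further upstream were not searched, nor were the promoters of Egr1 and Ier2. These letters are a description of the windows and show no binding.

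Levels of different genes were compared per length, by the authors' FPKM (fragments scaled for transcript length and library size), in intact cells. Fos led in Ctrl at 55.2 ± 6.13 FPKM (SD, n = 3), followed by Btg2 at 46.3 ± 0.50 FPKM, and their ranges did not overlap. As CPM per kilobase of all annotated exons they did overlap, at 42.3 to 52.3 for Fos and 43.5 to 44.0 for Btg2, and Ier2 at 14.7 ± 3.03 stood above Egr1 at 11.7 ± 2.17. Egr1 at 17.3 ± 3.24, Ier2 at 16.3 ± 3.42 and Dusp1 at 13.6 ± 0.0436 FPKM came next, and neighbours in this trio overlapped in range. Jund at 4.47 ± 0.475, Junb at 3.53 ± 0.881 and Nr4a1 at 3.27 ± 0.460 FPKM formed a lower group in which each neighbour also overlapped the next. Fosb at 1.49 ± 0.221 and Fosl2 at 0.18 ± 0.155 FPKM were the lowest and were each separated from the rest. The order differed in CKO at 4 places, all in FPKM. Junb at 10.3 ± 1.89 stood above Jund at 4.71 ± 0.380 without overlap, and its range overlapped that of Dusp1 at 8.78 ± 0.732, now below it. Btg2 at 66.3 ± 8.96 stood above Fos at 59.5 ± 2.20, with overlap, and Ier2 at 31.5 ± 4.08 above Egr1 at 16.9 ± 0.741, without.

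ONC against Ctrl asked how crush changed these genes in wild-type retinas by day 3. Of the 10 members, 6 rose (Fos, Fosb, Junb, Jund, Ier2 and Btg2), Dusp1 fell, and Fosl2, Egr1 and Nr4a1 were not called. The rises ranged from 1.56-fold for Fos to 2.69-fold for Junb. A gene was called at an adjusted p under 0.05 from edgeR's quasi-likelihood test over 15841 genes, at which 13.0% of all genes were called higher and 12.8% lower (25.8% in either direction). The median log2 fold change was 0.67 over the members and -0.039 over all genes. The members were chosen with earlier results of these data known, so setting them beside all genes is a description and no test of the set. Libraries of the groups did not overlap for 5 members on the higher side and 1 on the lower side, against 18.3% and 21.2% of all genes (39.5% together). With column 5 left out 7 members were called higher and 1 lower, where 22.1% of all genes were higher and 25.5% lower. With columns 3 and 6 summed as 1 library the members were 4 (Fos, Jund, Ier2 and Btg2) and 0 (6.62% and 5.20% of all genes). With column 5 as the ONC library they were 1 (Btg2) and 0 (4.73% and 2.83% of all genes).

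**Figure D1:**
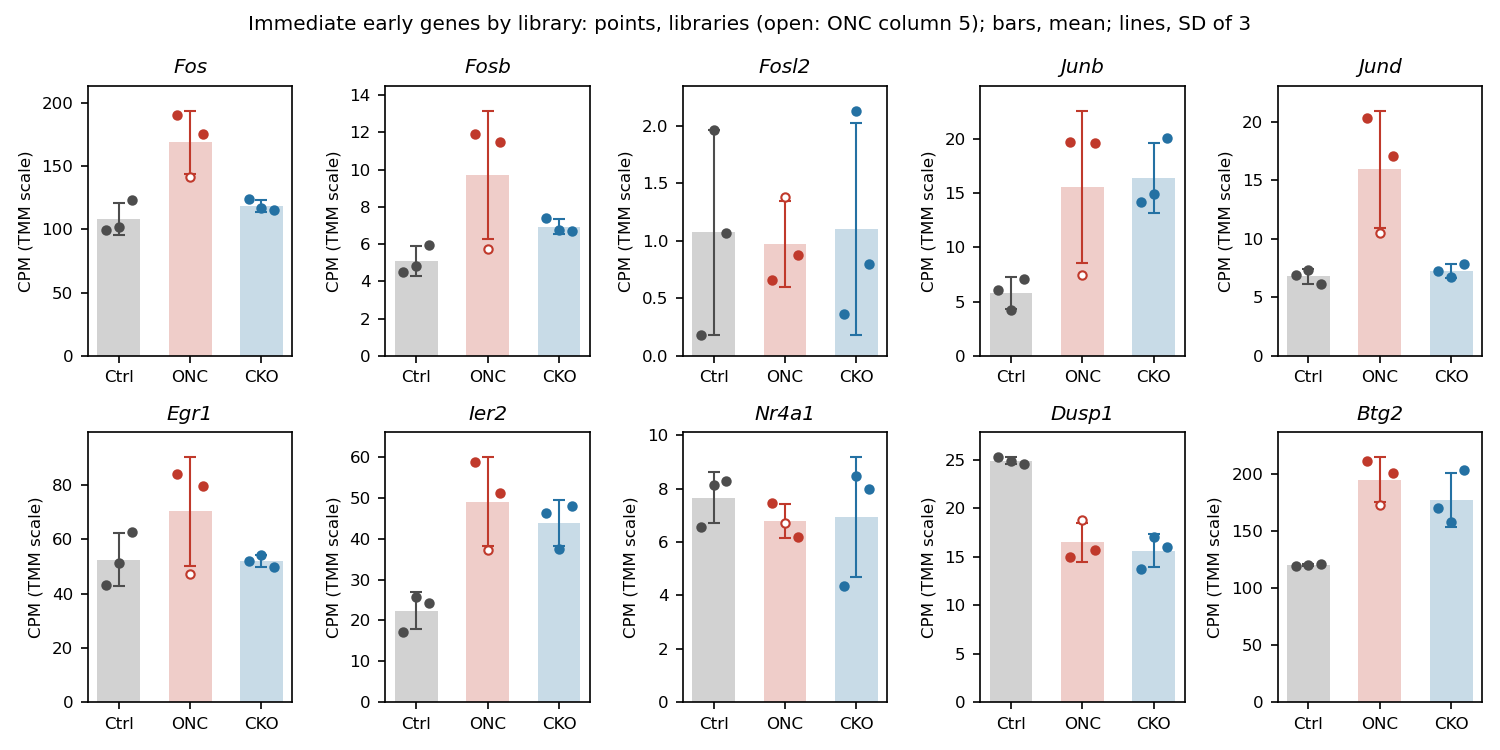
TMM-scaled CPM (library-normalised counts, vertical axes from 0) of the 10 genes in each library (points), with group mean (bars) and SD of 3 libraries (lines); the open ONC point is column 5. Column 5 lies below columns 3 and 6 for Fos, Fosb, Junb, Jund, Egr1, Ier2 and Btg2, at 141 against 190 and 175 CPM for Fos.

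Fos (ENSMUSG00000021250, GRCm38 chromosome 12, 85473890 to 85477273, plus strand) encodes the AP-1 subunit c-Fos. It was at 99.5, 102 and 123 CPM in Ctrl replicates 1 to 3, at 190, 141 and 175 CPM across ONC columns 3, 5 and 6, and at 124, 117 and 115 CPM in CKO replicates 1 to 3. All ONC libraries lay above all Ctrl and CKO libraries, and Ctrl and CKO overlapped. Fos rose by 0.64 ± 0.14 (log2 fold change ± SE, edgeR adjusted p 0.00901) in ONC against Ctrl. Column 5 alone gave a log2 fold change of 0.41 (edgeR adjusted p 0.0972), and leaving it out gave 0.75.

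Fosb (ENSMUSG00000003545, chromosome 7, 19302696 to 19310051, minus strand), the gene of a Fos paralog, was at 4.48, 4.83 and 5.97 CPM in Ctrl. It was at 11.9, 5.72 and 11.5 CPM across ONC columns 3, 5 and 6 and at 7.38, 6.74 and 6.70 CPM in CKO. Column 5 lay within the Ctrl range, so ONC and Ctrl overlapped, whereas every CKO library was above every Ctrl library. Fosb rose by 0.93 ± 0.30 in ONC (edgeR adjusted p 0.0426), the weakest of the calls, and was not called in 12 of 18 other analyses. Column 5 alone gave 0.19 on the log2 scale and the fit without it 1.20. Fosl2 (ENSMUSG00000029135, chromosome 5, 32135801 to 32157842, plus strand), which encodes Fra-2, had 4 to 48 counts per library and overlapped among all groups. It was at 1.07 ± 0.888 CPM in Ctrl, 0.972 ± 0.371 in ONC and 1.1 ± 0.918 in CKO, and a difference was not detectable at this depth. Its log2 fold change was 0.40 from column 5 alone and -0.46 without it, neither called.

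Junb (ENSMUSG00000052837, chromosome 8, 84974484 to 84978718, minus strand) encodes an inducible AP-1 partner of Fos. It was at 6.05, 4.20 and 7.08 CPM in Ctrl, at 19.7, 7.50 and 19.6 CPM across ONC columns 3, 5 and 6, and at 14.2, 14.9 and 20.1 CPM in CKO. Column 5 was just above the Ctrl range and below every CKO library. Junb rose by 1.43 ± 0.35 on the log2 scale in ONC against Ctrl (edgeR adjusted p 0.0145), and was not called from column 5 alone, at 0.39 (edgeR adjusted p 0.552). Without column 5 it was 1.75. It lost the call also without Ctrl replicate 2 or ONC column 3 or 6 (edgeR adjusted p 0.0564, 0.0604 and 0.0595). With columns 3 and 6 summed as 1 library it was 1.24 and not called (edgeR adjusted p 0.0581). Its exons share 173 bases with Prdx2 on the other strand, a gene with 5431 to 12662 counts per library, and 7 of 9 Junb counts were fractional. The split of reads between the genes is uncertain, and its part in the Junb values was not tested.

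Jund (ENSMUSG00000071076, chromosome 8, 70698949 to 70700616, plus strand), which encodes a Jun protein that most cells make without stimulation, was at 6.93, 7.35 and 6.13 CPM in Ctrl. It was at 20.3, 10.5 and 17.1 CPM across ONC columns 3, 5 and 6 and at 7.24, 6.70 and 7.88 CPM in CKO. The ONC libraries, column 5 included, were above all others, while Ctrl and CKO overlapped. Jund rose by 1.23 ± 0.26 in ONC against Ctrl (edgeR adjusted p 0.00802), against a log2 fold change of 0.64 from column 5 alone (edgeR adjusted p 0.27) and 1.46 without it. Over 877 bases its exons overlap those of the antisense gene Gm11175, whose reads could not be told apart without strand.

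Egr1 (ENSMUSG00000038418, chromosome 18, 34859823 to 34864984, plus strand) encodes a zinc finger factor that is widely used as a marker of neuronal activity. It was at 43.3, 51.4 and 62.7 CPM in Ctrl, at 83.8, 47.3 and 79.5 CPM across ONC columns 3, 5 and 6, and at 52.0, 54.2 and 49.9 CPM in CKO. Columns 3 and 6 were above every other library and column 5 was within the Ctrl range. Its log2 fold change of 0.42 ± 0.21 in ONC against Ctrl was not called (edgeR adjusted p 0.155). Without column 5 it was 0.64 (edgeR adjusted p 0.00185). With columns 3 and 6 summed as 1 library it was 0.30 (edgeR adjusted p 0.402), and with column 5 alone it was -0.13. Nr4a1 (ENSMUSG00000023034, chromosome 15, 101254269 to 101274795, plus strand), which encodes the orphan nuclear receptor Nur77, overlapped among all groups at 7.66 ± 0.960, 6.78 ± 0.644 and 6.93 ± 2.25 CPM in Ctrl, ONC and CKO. Its log2 fold change was -0.17 both from column 5 alone and without it, not called.

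Ier2 (ENSMUSG00000053560, chromosome 8, 84661331 to 84662852, minus strand) was at 17.2, 25.8 and 24.3 CPM in Ctrl. It was at 58.7, 37.2 and 51.1 CPM across ONC columns 3, 5 and 6 and at 46.3, 37.4 and 47.9 CPM in CKO. All 6 crush libraries were above all Ctrl libraries, and ONC and CKO overlapped. Ier2 rose by 1.13 ± 0.21 in ONC against Ctrl (edgeR adjusted p 0.00461), with a log2 fold change of 0.75 for column 5 alone (edgeR adjusted p 0.0746) and 1.29 without it.

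Btg2 (ENSMUSG00000020423, chromosome 1, 134075170 to 134079120, minus strand), a p53 target that slows proliferation and promotes mRNA deadenylation, was at 119, 120 and 121 CPM in Ctrl. It was at 211, 173 and 201 CPM across ONC columns 3, 5 and 6 and at 170, 158 and 203 CPM in CKO. The Ctrl libraries were tightly grouped and lay below every crush library. Btg2 rose by 0.70 ± 0.13 in ONC against Ctrl (edgeR adjusted p 0.00472). It was called in all 18 other analyses of this comparison, and column 5 alone gave a log2 fold change of 0.55 (edgeR adjusted p 0.0291) and the fit without it 0.78.

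Dusp1 (ENSMUSG00000024190, chromosome 17, 26505590 to 26562128, minus strand) encodes a phosphatase that switches off the MAP kinases p38, JNK and ERK. It was at 25.3, 24.9 and 24.6 CPM in Ctrl, at 15.0, 18.8 and 15.7 CPM across ONC columns 3, 5 and 6, and at 13.8, 17.1 and 16.0 CPM in CKO. Every crush library was below every Ctrl library, the reverse of Ier2 and Btg2. Dusp1 fell by 0.60 ± 0.17 on the log2 scale in ONC against Ctrl (edgeR adjusted p 0.0266). The call was lost in 9 of 18 other analyses, among them when any Ctrl library was left out, without ONC column 3 or 6 (log2 fold changes -0.61 to -0.54), with columns 3 and 6 summed (edgeR adjusted p 0.108) and with column 5 alone (log2 fold change -0.39). Without column 5 it was -0.70 and called.

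**Figure D2:**
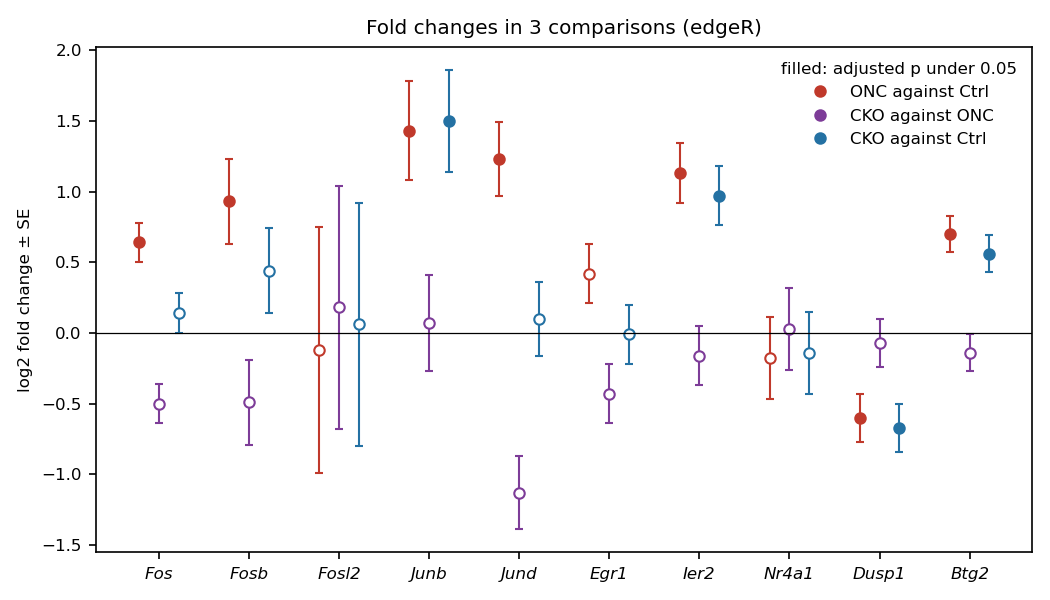
Log2 fold change ± SE (vertical axis) of each gene in the 3 comparisons, from edgeR; filled points were called at an adjusted p under 0.05. In CKO against ONC no gene was called, with Jund at -1.13 the lowest, and Junb was near 1.4 to 1.5 in both comparisons with Ctrl.

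The spread inside ONC was largest for Junb, whose highest library was 2.63 times its lowest, followed by Fosl2 (2.10 times), Fosb (2.08 times), Jund (1.94 times) and Egr1 (1.77 times). The mean of columns 3 and 6 was 2.62 times column 5 for Junb, 2.05 times for Fosb, 1.79 times for Jund and 1.73 times for Egr1, but 1.29 times for Fos and 1.19 times for Btg2. Among all tested genes 21.4% exceeded a ratio of 1.5, on CPM with 0.5 added. For Dusp1 the ratio was 0.818. Summed over the 10 members the level was 329 to 384 CPM in Ctrl, 618, 449 and 577 CPM across ONC columns 3, 5 and 6, and 423 to 475 CPM in CKO. In this sum, column 5 thus lay within the CKO range and above the Ctrl range. By gene, it lay within the CKO range only for Fosl2, Nr4a1 and Btg2. It lay within the Ctrl range for Fosb, Fosl2, Egr1 and Nr4a1.

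**Figure D3:**
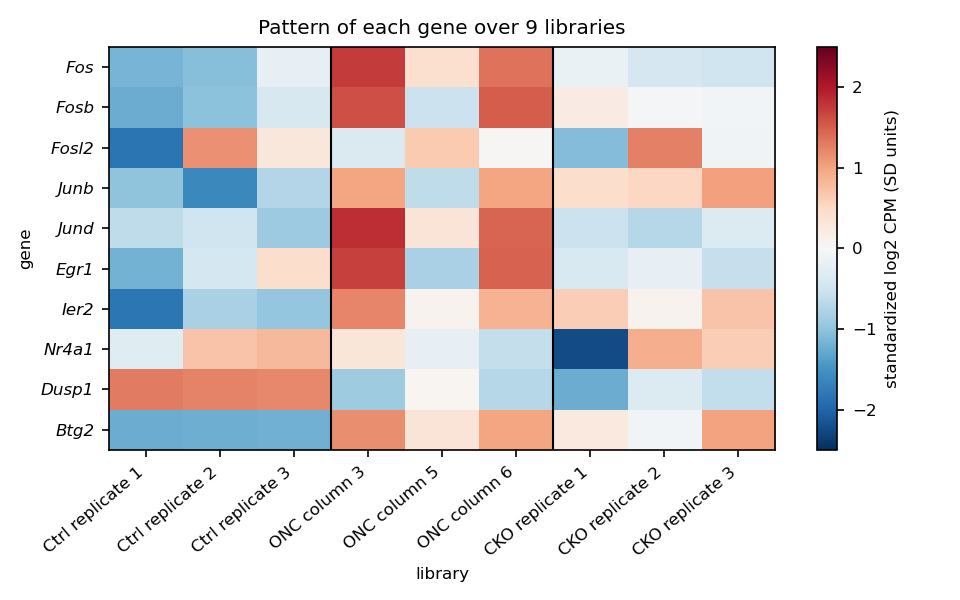
Log2 CPM of each gene, centred and scaled over the 9 libraries (colour, SD units; red high, blue low), with lines between groups. Fos, Fosb, Jund and Egr1 are highest in ONC columns 3 and 6, Dusp1 is highest in Ctrl, and Fosl2 and Nr4a1 vary within groups.

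A correction for GC content and gene length was run, since the members ranged from 49.7% to 67.1% GC in the longest transcript and from 1522 to 9680 bases of exon. The log2 fold changes in ONC against Ctrl then went from 1.43 to 0.93 for Junb, from 1.23 to 0.86 for Jund, from 0.93 to 0.50 for Fosb (edgeR adjusted p 0.164, so not called) and from 0.42 to -0.05 for Egr1. All called members other than Fosb kept their calls, with Fos at 0.46, Ier2 at 0.79, Btg2 at 0.62 and Dusp1 at -0.91 (edgeR adjusted p 0.00591 to 0.026 over the 6).

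**Figure D4:**
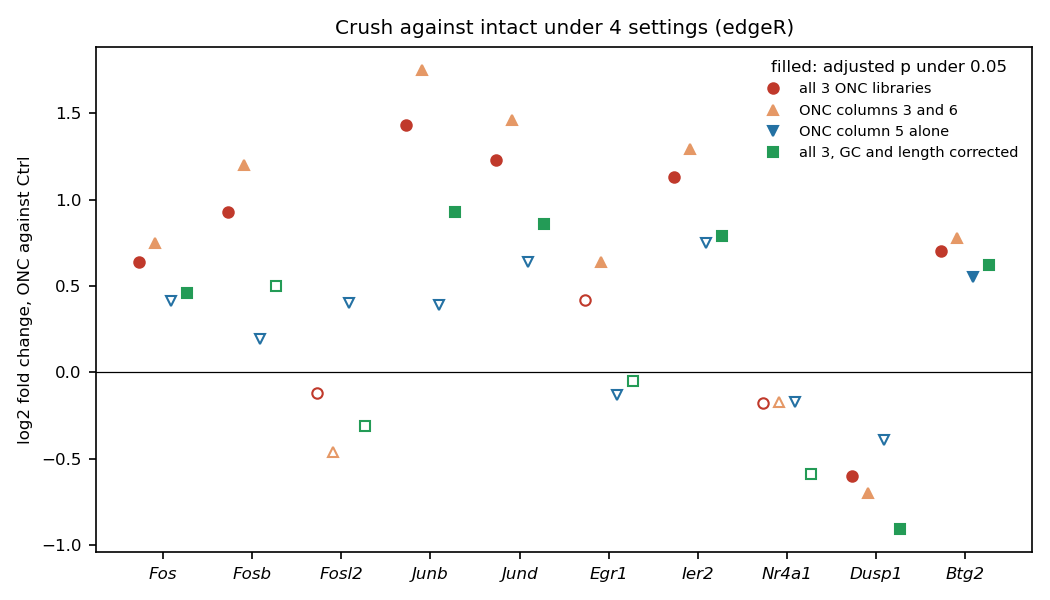
Log2 fold change (vertical axis) in ONC against Ctrl from all libraries, from ONC columns 3 and 6, from ONC column 5 alone and after GC and length correction; filled symbols had an edgeR adjusted p under 0.05. Btg2 was called in all 4, whereas Junb ranged from 0.39 to 1.75 and Egr1 from -0.13 to 0.64.

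The 15 ganglion cell markers summed to 155, 173 and 255 CPM in Ctrl replicates 1 to 3, 126 to 162 in ONC and 115 to 142 in CKO. Of 13 tested, Tubb3 was called higher and Isl1 and Chrnb3 lower in ONC against Ctrl. Markers of other cells moved in the same comparison. Of 12 Müller glia markers 9 were called higher in ONC against Ctrl and 0 lower, and their summed level was 800 to 842 CPM in Ctrl, 1750, 1090 and 1730 CPM across ONC columns 3, 5 and 6, and 1260 to 1390 CPM in CKO. The 12 amacrine markers summed to 487 to 570 CPM in Ctrl, 207 to 253 in ONC and 150 to 166 in CKO. The 9 endothelial markers summed to 31.8 to 38.2 CPM in Ctrl, 66.4, 39.0 and 69.5 CPM over ONC columns 3, 5 and 6, and 44.5 to 53.6 CPM in CKO. Like the summed level of the members, this sum was lower in column 5 than in columns 3 and 6. Only 4 of these 9 genes could be tested, and Kdr and Flt1 were called higher in ONC against Ctrl. Cldn5, Cdh5, Tek, Ly6c1 and Tie1 were too low to test. Of 15 rod markers 9 were called higher and 3 lower, and they summed to 85500 to 87100, 95200 to 105000 and 93200 to 96000 CPM in Ctrl, ONC and CKO. The 9 pigment epithelium markers summed to 347 to 517, 114 to 177 and 117 to 138 CPM, nearly all of it from Dct. Only Dct and Rgr could be tested. Dct was called lower in ONC against Ctrl (log2 fold change -1.71 ± 0.22). Rgr, at 0.63 ± 0.491 CPM in Ctrl and 0.73 ± 0.786 in ONC, was not called. Microglia and macrophage markers were near the detection limit, at 1.62 to 5.93 CPM summed over 12 genes in any library. Of 14 heat shock genes that tissue dissociation can raise, Hspa5, Hsp90ab1, Dnajb1 and Bag3 were called higher and Hspe1 lower in ONC against Ctrl. Of all genes, 13.0% were called higher and 12.8% lower. Bag3 had 2, 3 and 0 counts in Ctrl and lost the call in 13 of 17 other analyses. The part of these cells or of handling in the member values was not tested.

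The other immediate early genes were called about as often after crush as all genes (13.0% higher, 12.8% lower). Of 38 listed, 32 were tested, 6 rose (Atf3, Klf6, Gadd45b, Ccn1, Ccn2 and Nfkbia) and 3 fell (Nr4a2, Npas4 and Homer1), with a median log2 fold change of 0.46. Gadd45b, a stress sensor gene, rose by 1.61 ± 0.34 on the log2 scale (edgeR adjusted p 0.00737), its mean CPM going from 4.23 ± 1.65 to 13.0 ± 3.15, and was not called from column 5 alone (log2 fold change 1.21, edgeR adjusted p 0.1). Nfkbia, the inhibitor of NF-κB, rose by 0.92 ± 0.16 on the log2 scale (edgeR adjusted p 0.00321), its mean CPM going from 47.6 ± 8.41 to 89.8 ± 11.8. Npas4, a neuronal factor induced by calcium entry, fell from 35, 21 and 70 counts in Ctrl to 2, 1 and 7 counts across ONC columns 3, 5 and 6. Its log2 fold change was -3.70 ± 0.93 by edgeR (adjusted p 0.0151). The call was lost from column 5 alone and without Ctrl replicate 3 or ONC column 3 (edgeR adjusted p 0.0797, 0.0548 and 0.0713). The Homer1 call was lost in 10 of 18 other analyses and that of Ccn2 in 9. Jun was not called, at 23.5, 8.68 and 20.7 CPM across ONC columns 3, 5 and 6 against 9.65, 14.3 and 16.4 CPM in Ctrl. Egr2 had 0 to 9 counts per library and was not tested.

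Genes that act above the members were mostly not called in ONC against Ctrl. Of 32 kinases and transcription factors tested, 8 rose and 2 fell, where 13.0% of all genes were called higher and 12.8% lower. Their median log2 fold change was 0.08. Srf, which binds the promoters of Fos and Egr1, rose by 1.93 ± 0.39 on the log2 scale (edgeR adjusted p 0.00674), its mean CPM going from 1.79 ± 0.577 to 6.79 ± 2.36. Its coactivator gene Mrtfa rose by 1.49 ± 0.33, the MAP kinase kinase gene Map2k2 by 1.27 ± 0.22 and Mef2d, a calcium-regulated factor gene, by 1.11 ± 0.20. With column 5 alone Srf (log2 fold change 1.37), Mrtfa (0.74) and Map2k2 (0.68) were not called (edgeR adjusted p 0.183, 0.317 and 0.0744). The JNK3 gene Mapk10 fell by 0.63 ± 0.18, a call lost in 10 of 18 other analyses.

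Of the feedback and decay genes, 4 of 15 each were called in ONC against Ctrl, near the 25.8% of all genes. Of 15 feedback inhibitor genes tested, the phosphatase genes Dusp7 and Dusp8 rose by 1.24 ± 0.27 and 0.99 ± 0.18 on the log2 scale. Dusp6, which acts on ERK, and the Ras inhibitor gene Spred1 fell, with log2 fold changes of -1.17 ± 0.40 and -0.89 ± 0.24, calls that were lost in 13 and 8 of 18 other analyses. Of 15 genes of mRNA decay and the BTG/TOB family, Tob1, a paralog of Btg2, had a log2 fold change of -0.73 ± 0.16 (edgeR adjusted p 0.00957) and fell from 146 ± 6.33 to 88.1 ± 22.3 CPM. Cnot6, Cnot7 and Tob2 were called lower, lower and higher, and lost the call in 14, 12 and 12 of 18 other analyses, with Cnot6 turning sign after GC and length correction. Among 11 tested AP-1 partner genes Atf3, Atf7 and Nrl rose and Maf fell. Atf7, Nrl, Atf3 and Maf lost the call in 10, 9, 1 and 0 of 18 other analyses, and Nrl is also among the rod markers used here. Dusp7 (log2 fold change 0.51), Dusp8 (0.60) and Tob1 (-0.34) were not called with column 5 alone.

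The effect of losing amacrine ZnT3 after crush was addressed by CKO against ONC. None of the 10 members was called by edgeR, where 0.865% of all genes were (0.587% higher, 0.278% lower), and 2 had an unadjusted p under 0.05, as did 27.2% of all genes. These 2, Fos and Jund, were lower in every CKO library than in every ONC library, with log2 fold changes of -0.50 ± 0.14 (edgeR adjusted p 0.0717) and -1.13 ± 0.26 (edgeR adjusted p 0.0523). DESeq2 called both lower (adjusted p 0.0168 and 0.00265), where it called 14.3% of all genes in either direction. Of all genes, 12.6% had non-overlapping groups on the lower side and 26.2% on either side. Without column 5, Fos, Fosb, Jund and Egr1 were called lower (log2 fold changes -0.62, -0.76, -1.36 and -0.65), where 16.8% of all genes were called lower. With columns 3 and 6 summed as 1 library no member was called. Column 5 alone gave log2 fold changes of -0.24, 0.28, -0.52 and 0.14 for Fos, Fosb, Jund and Egr1.

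Junb, Ier2, Btg2 and Dusp1 had log2 fold changes of 0.07 ± 0.34, -0.16 ± 0.21, -0.14 ± 0.13 and -0.07 ± 0.17 in CKO against ONC, with overlapping groups, which does not show that their levels were alike. Of the related lists, 0 of 32 other immediate early genes, 0 of 32 upstream genes and 0 of 15 feedback genes were called by edgeR, with 8, 13 and 5 at an unadjusted p under 0.05 and 5, 6 and 2 called by DESeq2, against the 27.2% and 14.3% of all genes given above. In the list of mRNA decay and BTG/TOB genes, 1 of 15 was called, Tob1, which rose from 88.1 ± 22.3 CPM in ONC to 153 ± 6.90 CPM in CKO by 0.79 ± 0.16 on the log2 scale (edgeR adjusted p 0.0492). That call was lost when any library other than ONC column 5 was left out.

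CKO against Ctrl compared crushed knockout with intact wild-type retinas, so injury and genotype cannot be told apart. Of the 10 members, Junb, Ier2 and Btg2 rose, Dusp1 fell and 6 were not called, where 4.32% of all genes were called higher and 4.58% lower (8.89% in all). The median log2 fold change over the members was 0.12. This comparison shares its Ctrl libraries with ONC against Ctrl, so the values are set side by side only. Junb had log2 fold changes of 1.50 ± 0.36 here (edgeR adjusted p 0.0241) and 1.43 ± 0.35 in ONC, Ier2 of 0.97 ± 0.21 (edgeR adjusted p 0.0162) and 1.13 ± 0.21, Btg2 of 0.56 ± 0.13 (edgeR adjusted p 0.0234) and 0.70 ± 0.13, and Dusp1 of -0.67 ± 0.17 (edgeR adjusted p 0.0342) and -0.60 ± 0.17. Fos, Jund and Egr1 had log2 fold changes of 0.14 ± 0.14, 0.10 ± 0.26 and -0.01 ± 0.21 in CKO and were not called.

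Leaving out single libraries gave 0 to 3 members called higher and 0 or 1 lower. No member was called higher without Ctrl replicate 1 or 3 or CKO replicate 1 or 3, and 1 was without Ctrl replicate 2. Dusp1 lost its call without any single Ctrl or CKO library or ONC column 6 (edgeR adjusted p 0.0563 to 0.138). Over all libraries left out, the log2 fold changes stayed at 1.32 to 1.67 for Junb, 0.81 to 1.08 for Ier2, 0.45 to 0.63 for Btg2 and -0.74 to -0.58 for Dusp1. Leaving out ONC column 3 or 5 changed no member's call. With the 6 libraries compared fitted alone, 3 members were called higher and 1 lower, as in the fit of all 9. Groups did not overlap for Fosb, Junb, Ier2 and Btg2 on the higher side and Dusp1 on the lower side, against 17.2% and 18.5% of all genes (35.7% together).

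Among the other immediate early genes, 6 of 32 rose in CKO against Ctrl and 1 fell, where 4.32% of all genes were called higher and 4.58% lower. Fosl1, which encodes the Fos family protein Fra-1, was counted 4, 2 and 0 times in Ctrl, 10, 6 and 8 times in the ONC columns (3, 5, 6) and 20, 27 and 35 times in CKO. Its log2 fold change of 3.53 ± 0.97 (edgeR adjusted p 0.0431) rests on these low counts and lost the call when any library other than ONC column 5 was left out. Atf3, an injury-induced factor gene that also belongs to the axon injury genes, was at 9.64 ± 0.510 CPM in Ctrl, 21.6 ± 5.24 in ONC and 21.3 ± 3.32 in CKO. It rose by 1.14 ± 0.22 in CKO against Ctrl (edgeR adjusted p 0.00992) and kept the call in all 19 other analyses. Gadd45b rose by 1.99 ± 0.34 (edgeR adjusted p 0.0061) and Nfkbia by 0.75 ± 0.16 (edgeR adjusted p 0.0135). Gadd45b lost the call in 0 and Nfkbia in 3 of 19 other analyses.

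Outside the members, the genes whose log2 CPM followed the members' mean standardized level most closely over the 9 libraries were Hipk2, Ppp1r18, Slc39a3, Isyna1, Cds2 and Jmjd8, ranked among 10555 genes. Their Pearson coefficients, a measure of likeness over libraries that fall into groups, were 0.982, 0.977, 0.974, 0.969, 0.967 and 0.967. Not every member followed this mean. Against the mean of the other members, coefficients ran from 0.86 for Fosb to 0.14 for Fosl2, 0.01 for Nr4a1 and -0.71 for Dusp1. Hipk2, the gene of a stress-activated kinase, was at 11.3 ± 2.39 CPM in Ctrl, at 26.4, 13.7 and 24.5 CPM across ONC columns 3, 5 and 6, and at 13.6 ± 2.30 CPM in CKO. Slc39a3, a zinc importer gene, was at 28.2, 12.4 and 25.7 CPM in these columns against 9.38 ± 3.03 CPM in Ctrl. Both were high in columns 3 and 6 and near the CKO libraries in column 5.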

How the data were processed

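The members and gene lists were chosen with earlier results of these data known. The submitters' processing notes name Trimmomatic 0.36, GRCm38 and mm10. Aligner, counter and annotation: not given in the sources used here. Libraries were made from whole-transcriptome-amplified cDNA with a transposase kit, per the labels' protocols. The labels call the libraries stranded, but such a kit does not mark strand, so the counts were treated as unstranded. Per the file headers, each gene had 1 expected count and 1 FPKM value per library in the deposited file. The expected count values were not normalized by the authors, and the FPKM values were scaled by the authors for length and depth. The 3 ONC FPKM columns could not be matched to samples and were not used. Names came from GENCODE M21 (21956 of 21970 Ensembl identifiers matched).

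After rounding, counts were fitted using edgeR 4.0.16 (R 4.3.3): filterByExpr (15841 genes left), TMM scaling and 1 quasi-likelihood model of all 9 libraries with no covariate, with Benjamini-Hochberg adjustment over all genes. Adjusted p-values in the text are from edgeR unless DESeq2 (1.42.0) is named. CPM are on the TMM scale, except marker sums, which use library totals. The fit was tested on simulated data. Values after ± are SDs over the libraries of a group or, for log2 fold changes, standard errors from the edgeR fit. PCR copies were not marked. Replicate numbers did not pair Ctrl with CKO (correlations of deviations 0 to 0.01). Genes outside the members were named by rule: Jun, Atf3, Egr2, Fosl1 and the 4 lowest p-values of each list and comparison; Klf6, Ccn1, Nr4a2, Hspe1 and other names given in counts fell outside it. Alternatives were other scalings, filters, samples and tools, and leaving out each library.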

Additional observations from a re-analysis of the deposited data

How the results depend on the processing

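Counts of called genes moved with the processing, and the cause was not tested. In ONC against Ctrl, genes called higher and lower numbered 1049 and 823 when columns 3 and 6 were summed, 749 and 448 for column 5 alone, and 1148 were lower with the libraries compared fitted alone. Members called lower went from 1 to 0 in these 3 analyses and with no low-count filter, and members called higher to 1 with column 5 alone. In CKO against ONC the higher and lower counts were 1188 and 1073 with DESeq2, 210 and 286 with library totals, 425 and 365 with no filter, 217 and 245 with a stricter filter, 4 and 4 with column 5 alone, and 1 and 1 with columns summed or the libraries compared alone. Members called lower there were 2 with DESeq2 or library totals and 1 with either filter. In CKO against Ctrl the counts were 1182 and 1118 with DESeq2, 1592 and 1350 with the libraries compared alone and 1692 and 1286 with column 5 alone, 1037 were higher after GC and length correction, and Dusp1 lost its call with no filter (0 members lower). A replicate block, although the numbers did not pair the samples, gave 1461 and 1216, with 3 members higher and 1 lower, and Egr1 at 0.01.

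Leaving out single libraries gave 955 to 3495 genes higher and 794 to 4036 lower in ONC against Ctrl (members 4 to 7 and 0 to 1). It gave 1 to 3277 and 1 to 2664 in CKO against ONC (members 0 and 0 to 4), the highest without column 5, and 261 to 1879 and 222 to 1627 in CKO against Ctrl (members 0 to 3 and 0 to 1).

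Log2 fold changes turned sign as follows. In ONC against Ctrl, GC and length correction gave Egr1 -0.05, Jun -0.05, Cnot6 0.05 and Homer1 0.16, column 5 alone gave Egr1 -0.13, Jun -0.61 and Fosl2 0.40, and summed columns gave Fosl2 0.02. In CKO against ONC, column 5 alone gave Fosb 0.28, Fosl2 -0.32, Egr1 0.14, Ier2 0.24, Btg2 0.03 and Jun 0.45, the correction gave Egr1 0.04, Ier2 0.15 and Dusp1 0.13, library totals gave Junb -0.07 and Nr4a1 -0.08, and the stricter filter gave Nr4a1 -0.00. In CKO against Ctrl, Fos was -0.02 after correction, Fosl2 -0.01 with library totals, and Egr1 0.02 with no filter and 0.01 with column 5 alone. Over single libraries left out, Fosl2 ranged from -0.63 to 0.62, from -0.73 to 0.58 and from -0.85 to 0.80 in the 3 comparisons. In CKO against ONC, Junb ranged from -0.26 to 0.27, Nr4a1 from -0.14 to 0.27 and Dusp1 from -0.14 to 0.03, and in CKO against Ctrl Egr1 ranged from -0.13 to 0.14 and Nr4a1 from -0.31 to 0.11. Low counts limit Fosl2, Fosl1 and Npas4.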
